A study of Mus musculus with 6 samples.

Results

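RW4 is a line of mouse embryonic stem cells, and the 2 untreated arrays of the series show what these cells transcribe before any inducer is added. Both arrays were taken whole, chosen by their titles alone, from 6 single-colour Affymetrix arrays in all, and 19938 genes were described on them. The untreated cells received no agent, and their induction system is labelled WT. They were kept on 0.1% gelatin in DMEM with newborn calf serum and fetal bovine serum at 10% each, nucleosides, β-mercaptoethanol and leukemia inhibitory factor (LIF) at 1000 U/mL. Total RNA from a column kit, treated with DNase, was labelled with biotin. The other 4 arrays, from cells given 1 µM 4-hydroxytamoxifen or 1 µM Shld1, enter no value below except where an alternative names them. The labels call the arrays duplicates and do not say that they came from separate cultures, so the spread between them may be technical and every p-value rests on that spread alone. The values describe a line in bulk: fewer cells with a transcript and less transcript per cell cannot be told apart.

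Embryonic stem cells come from the inner cell mass of the blastocyst and can form every tissue of the embryo proper. A small network of transcription factors, with Pou5f1 (Oct4), Sox2 and Nanog at its centre, holds them in this state, and LIF in the medium sustains it by activating Stat3 through the receptor pair Lifr and Il6st. Fgf4, which the cells make themselves, pushes them towards differentiation. Cells in serum are known to vary, some closer to the naive state of the early blastocyst and others closer to the primed state that follows implantation.

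Levels are the deposited log2 signals, so that a step of 1 is a doubling, and each gene has the level of its brightest probe set. Probe sets bind and glow unequally, so the order of genes describes signal and not numbers of RNA molecules. Background was read from 1022 olfactory receptor genes, which sensory neurons of the nose use: the 95th percentile of their mean levels, 3.71, is the background level, and the 99th percentile, 4.56, a stricter one. A gene was called above or below background where limma's two-sided test of its level against 3.71 gave an adjusted p under 0.05. Of the 19938 genes, 11926 (59.8%) were called above background, 6374 (32.0%) below it, and 1638 (8.22%) could not be told apart from it. At the stricter level 9330 genes (46.8%) were above. Counts given below for lists and families are to be read beside these shares over all genes, 59.8% and 46.8%. Levels ran from 1.39 to 13.41 with a median of 4.58. Of these olfactory genes 34 were themselves called above background and 937 below, so a call near background describes a signal and does not establish a transcript. The median level of the olfactory genes was 2.37, so a gene called below background could still read above many of them. Such a call does not show that a transcript was absent.

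The markers of the stem cell state were bright on both arrays. Pou5f1, the POU-domain factor at the centre of the network, read 10.36 and 10.43 (mean 10.40 ± 0.05, SD, n = 2). Sox2, its DNA-binding partner, read 10.63 and 10.65 (mean 10.64 ± 0.01), and Nanog, a homeodomain protein that stabilises self-renewal, read 10.89 and 10.94 (mean 10.91 ± 0.03). Each stood more than 6 log2 units above background, far beyond the spread of the 2 arrays (limma, adjusted p = 1.04e-06 for each). The label of the cells and their defining markers therefore went together.

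All 14 measured core pluripotency genes were above background, at the stricter level too, with a median level of 9.68 against 4.58 for all genes tested. The brightest was Dppa5a, an RNA-binding protein of pluripotent cells, at 12.09 and 11.99. Tdgf1 (Cripto), the co-receptor for Nodal, followed at 11.62 and 11.78. The lowest were Lin28a, which blocks maturation of let-7 microRNAs, at 6.81 and 6.97, and Dppa4, a chromatin-associated protein, at 6.42 and 6.55. Even the lowest member thus lay almost 2 units above the stricter background level.

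The promoter of Nanog carries the element through which Pou5f1 and Sox2 are known to bind side by side, and it is shown with the promoters of Sox2 and of Alb, the liver albumin gene, for contrast. Each run is the 250 bases before a transcription start in RefSeq (GRCm38.p6), 5′ to 3′. In the Nanog run, the capitals mark the composite element, and in the runs of Sox2 and Alb they mark CpG dinucleotides.
Nanog (chr6:122707239-122707488, plus strand): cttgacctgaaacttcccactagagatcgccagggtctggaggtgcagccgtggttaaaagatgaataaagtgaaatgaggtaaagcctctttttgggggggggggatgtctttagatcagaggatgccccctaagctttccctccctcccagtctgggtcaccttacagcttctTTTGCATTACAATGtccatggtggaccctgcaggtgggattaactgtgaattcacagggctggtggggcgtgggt
Sox2 (chr3:34649745-34649994, plus strand): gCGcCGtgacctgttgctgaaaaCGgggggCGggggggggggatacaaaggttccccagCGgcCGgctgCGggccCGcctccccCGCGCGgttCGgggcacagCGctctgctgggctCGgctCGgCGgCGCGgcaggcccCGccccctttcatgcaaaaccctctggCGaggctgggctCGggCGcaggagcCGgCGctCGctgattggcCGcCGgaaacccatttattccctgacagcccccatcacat
Alb (chr5:90460620-90460869, plus strand): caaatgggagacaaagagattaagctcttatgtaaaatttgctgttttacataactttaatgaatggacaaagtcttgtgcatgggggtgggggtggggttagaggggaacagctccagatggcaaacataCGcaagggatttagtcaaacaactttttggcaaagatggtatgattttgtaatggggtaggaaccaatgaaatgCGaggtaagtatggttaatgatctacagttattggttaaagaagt
The element was searched, with 1 free base between its Sox part and its Pou part, on both strands of the 300 bases around each start. Apart from the free base only exact matches counted, and the letters searched are those of the Nanog element, so Nanog matched by construction. The element was found in 2 of 32851 promoter entries (0.006%), both of them starts of Nanog. Variants of the element were not counted, so the number does not show that such elements are confined to Nanog. The match, TTTGCATTACAATG as read on the gene's strand, begins 75 bases before the start shown and 151 before the other. The octamer ATGCAAAT, which overlaps the Pou part of the composite, was in 1.735% of entries. The Sox2 run holds 27 CpG dinucleotides, that of Nanog 3 and that of Alb 2, and Alb read 2.59 and 2.78, below background. A match is a run of letters, not evidence of binding in these cells.

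Of 19 measured genes of the naive state, 18 were above background at both levels. The brightest were Klf5, a zinc finger factor of the early embryo, at 9.63 and 9.66, Tfcp2l1, a target of LIF signalling, at 9.39 and 9.45, and Esrrb, an orphan nuclear receptor of the network, at 9.07 and 9.12. Dppa3 (Stella), which protects the maternal genome from demethylation, was the member that could not be told apart from background, with 4.14 and 3.74. Stat3, the carrier of the LIF signal, read 7.33 and 7.31, and Klf4, its target, 7.14 and 7.29.

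Genes of the formative and primed states were also above background, in 14 of 16 cases, or 11 of 16 at the stricter level. Otx2, the homeodomain factor of the post-implantation epiblast, read 7.67 and 7.61. Dnmt3a, a DNA methyltransferase, read 7.28 and 7.40, and Lefty2, an inhibitor of Nodal, 6.85 and 7.17. Pou3f1 (4.40 and 4.48) and Fgf5 (4.27 and 4.23), both markers of the primed epiblast, were above background only at the lower level. Sall2 at 3.62 and 3.93 was not told apart from background, and Cer1 at 3.19 and 3.11 was below it. Genes of both states were therefore read in the same bulk RNA, with Klf5 and its neighbours at the bright end. None of the 6 measured genes of the 2-cell-like state, a rare state resembling the early embryo, was above background: 4 were below and 2, Usp17lc (3.85 and 3.50) and Zfp352 (3.75 and 3.41), were not told apart.

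**Figure D1:**
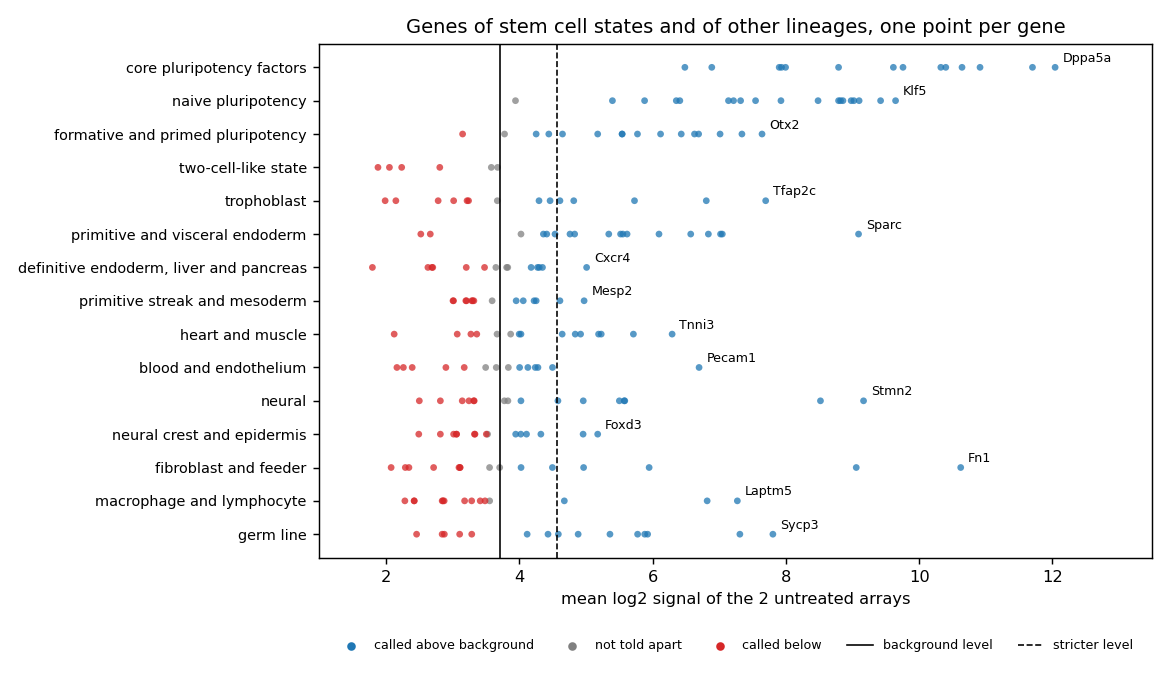
Mean log2 signal of the 2 untreated arrays (x axis) for each measured gene of the stem cell state and lineage lists (rows), coloured by its call, with the brightest gene called above background named in each row. The solid line is the background level of 3.71 and the dashed line the stricter level of 4.56; every core pluripotency gene lies right of both lines, and no gene of the 2-cell-like state is called above the solid line.

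Markers of differentiated lineages were mixed. Over the 11 lineage lists, 80 of 163 genes (49.1%) were above background, below the share of 59.8% among all genes, and 44 (27.0%) were above the stricter level, against 46.8%. Their median level was 3.87. Which members were bright differed from list to list, and several of the bright ones are known to be used widely outside the lineage.

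Primitive and visceral endoderm, the extraembryonic layer that forms beside the epiblast, had 15 of 18 genes above background (83.3%, against 59.8% of all genes). At the stricter level there were 10 (55.6%, against 46.8% of all genes). Sparc, a secreted matrix protein, read 9.03 and 9.15. Dab2, an endocytic adaptor, read 6.996 and 7.095, although its other probe set read 1.96 and 2.04. The basement membrane laminins Lamb1 (6.996 and 7.042) and Lama1 (6.84 and 6.83) were alike, and the transcription factors that set the fate, Gata6 (6.68 and 6.46) and Gata4 (6.09 and 6.10), were above the stricter level as well. Sox17 and Sox7, factors of the same layer, were lower at 4.07 and 4.65 and at 4.33 and 4.49. Foxa2 was not told apart from background at 4.37 and 3.68, and the secreted yolk sac proteins Ttr (2.70 and 2.62) and Afp (2.66 and 2.38) were below it.

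Of 14 trophoblast genes, 7 were above background, 4 of them at the stricter level. Tfap2c, which germ cells and naive stem cells also use, read 7.75 and 7.64, and the keratins Krt8 and Krt18 read 7.06 and 6.55 and 5.79 and 5.67. Among the regulators of the lineage, Eomes (4.46 and 4.76), Hand1 (4.26 and 4.66) and Esx1 (4.72 and 4.91) were above background, Eomes and Hand1 without being told apart from the stricter level. The regulators Cdx2 (3.11 and 3.32), Elf5 (3.10 and 2.46) and Gata3 (3.11 and 3.37) were below background.

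Lists of the embryonic germ layers and their organs differed in their counts. In the list of definitive endoderm, liver and pancreas 5 of 14 genes were above background and 1 above the stricter level, Cxcr4, the receptor of migrating cells, at 5.06 and 4.96. In that of primitive streak and mesoderm the counts were 6 of 14 and 1. That 1 was Mesp2, a factor of the forming somites, at 5.02 and 4.93. Next in brightness came Eomes, Msgn1, Tbx6, Mixl1 and Hand2, none of them called above the stricter level. Mesp1 (3.34 and 3.26) and Kdr, the VEGF receptor (3.19 and 2.83), were below background. In the blood and endothelium list 6 of 14 genes were above background and 1 at the stricter level: Pecam1, an adhesion molecule that embryonic stem cells are also known to carry, at 6.72 and 6.67. After Pecam1 the brightest were Runx1, Gata1, Itga2b, Tal1 and Lmo2, none of them called above the stricter level. Ptprc (CD45) read 2.32 and 2.46 and the embryonic globin Hbb-y 2.05 and 2.28, both below background. Heart and muscle had 9 of 15 above (60.0%, against 59.8% of all genes), 6 of them at the stricter level (against 46.8% of all genes), with cardiac troponin Tnni3 at 6.33 and 6.25, Des at 5.55 and 5.87 and Myl7 at 5.44 and 5.02, while Myog at 3.22 and 3.50 was below and Myh6 at 3.90 and 3.43 was not told apart.

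In the neural list 8 of 16 genes were above background and 6 above the stricter level. Stmn2, a regulator of microtubules in growing axons, read 9.12 and 9.21, and the tubulin Tubb3 read 8.66 and 8.38. Elavl3 (5.67 and 5.49), Pax6 (5.64 and 5.50) and Sox1 (5.42 and 5.58) were lower but still above the stricter level. Nes (2.71 and 2.92), Dcx (2.56 and 2.44) and Olig2 (3.34 and 3.29), which mark neural progenitors, migrating neurons and oligodendrocyte precursors, were below background. Members of this list thus lay on both sides of background, with Pax6 and Sox1 above it and those 3 markers below. For neural crest and epidermis the counts were 6 of 15 and 2. Foxd3, which stem cells also use, read 5.06 and 5.29 and Krt10 5.12 and 4.80. Next in brightness were Pax7, Twist1, Sox10 and Snai2. Krt14 (3.38 and 3.27) and Lor (3.028 and 2.999) of the skin were below background.

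Cells often kept beside stem cells were looked for in the same way. Of 15 genes of fibroblasts and feeder cells 6 were above background and 4 above the stricter level. Fn1 (fibronectin) read 10.59 and 10.66, Vim (vimentin) 9.04 and 9.07, Thy1 5.96 and 5.94, and Col1a1 4.90 and 5.03. The other collagen genes lay lower, with Col1a2 at 4.67 and 4.32 and Col3a1 at 4.22 and 3.83, and Postn (2.21 and 2.47), Lum (2.09 and 2.07) and Dcn (2.91 and 2.52), secreted proteins that define fibroblasts, were below background. Of 14 genes of macrophages and lymphocytes 3 were above, 2 at the stricter level: the lysosomal proteins Laptm5 (7.11 and 7.43) and Cd68 (6.86 and 6.77). The defining Adgre1 (2.51 and 2.33), Csf1r (3.30 and 3.27) and Lyz2 (2.28 and 2.29) were below background.

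The germ line list had 10 of 15 genes above background (66.7%, against 59.8% of all genes). At the stricter level there were 7 (46.7%, against 46.8% of all genes). Sycp3, a component of the axis of meiotic chromosomes, read 7.77 and 7.84, and Stra8, a retinoic acid target that starts meiosis, read 7.30 and 7.32. Mael, Tex19.1 and Dazl, the next brightest of the list, read 5.92 and 5.93, 5.86 and 5.90, and 5.59 and 5.96. Genes of the oocyte were below background: Gdf9 read 3.23 and 2.98, Figla 2.94 and 2.80, and Zp3 3.25 and 3.33.

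Transcription factors were close to genes in general in how many were above background. Of 493 members of 39 families collected by symbol, 332 (67.3%) were above background, against 59.8% of all genes, and 229 (46.5%) above the stricter level, against 46.8%, and their median level, 4.59, was that of all genes, 4.58. Nanog, at 10.91, belongs to none of these families by symbol. Of the 493 members, none was among the 100 brightest genes and 2 were among the 200 brightest, Sox2 and Pou5f1. Below these, within the families, came Klf5, Sall4 (9.55 and 9.68), a zinc finger protein of the pluripotency network, Tfcp2l1, and Atf4 (9.37 and 9.40), a regulator of the amino acid response. Etv5, a target of FGF signalling, read 9.05 and 9.27, Tbx3 8.82 and 8.89, Nr0b1 (Dax1) 8.84 and 8.80, and Nr5a2, a nuclear receptor that can drive Pou5f1, 8.52 and 8.44. Regulators of the stem cell state and widely used factors were thus interleaved at the top.

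The Pou and Sox families each had a member far brighter than the rest. Of 11 Pou genes 7 were above background, but Pou5f1 was the only 1 above the stricter level. Among 19 Sox genes 14 were above (73.7%, against 59.8% of all genes), 9 at the stricter level (47.4%, against 46.8%). The next after Sox2 were Sox15 (6.35 and 6.36) and Sox21 (6.33 and 6.37), more than 4 units lower. In the T-box family 7 of 15 genes were above background and 3 at the stricter level, led by Tbx3 and by Mga (8.02 and 8.17), a partner of Max. The homeobox genes that pattern the body axis were low: of 37 Hox genes 13 were above background and 2 above the stricter level, Hoxb9 (4.92 and 4.95) and Hoxa4 (5.04 and 4.73). Of 11 Lim homeobox genes 5 were above and 1 at the stricter level.

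In several families all or nearly all members were above background. All 10 E2f and Dp genes, of a family that controls entry into S phase, were above the stricter level. Tfdp1 read 8.50 and 8.59 and E2f4 8.11 and 8.12. All 12 genes of the Myc and Max network were above background and 10 above the stricter level: Max read 8.44 and 8.46, Mycn 6.90 and 6.98, Mycl 6.39 and 6.29, and Myc itself 5.08 and 5.39. All 8 Smad genes, of a family that acts in BMP and Nodal signalling, were above background, Smad4 being the brightest at 7.44 and 7.53. In the Zbtb family 39 of 40 genes were above. The Klf and Sp family had a smaller share, 18 of 25, above background, each of the 18 at the stricter level, with Sp3 at 8.49 on both arrays and Klf10 at 8.24 and 8.35 after Klf5. The other probe set of Sp3 had a mean of 4.45, under the stricter level. Nuclear receptors divided more evenly, with 21 of 45 above background and 18 below, and next to Esrrb, Nr0b1 and Nr5a2 stood Rara, the retinoic acid receptor, at 7.98 and 8.10. Esr1, the estrogen receptor, read 4.01 and 3.98, above the lower level and below the stricter 1, and Esr2 was below background at 3.27 and 3.25.

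**Figure D2:**
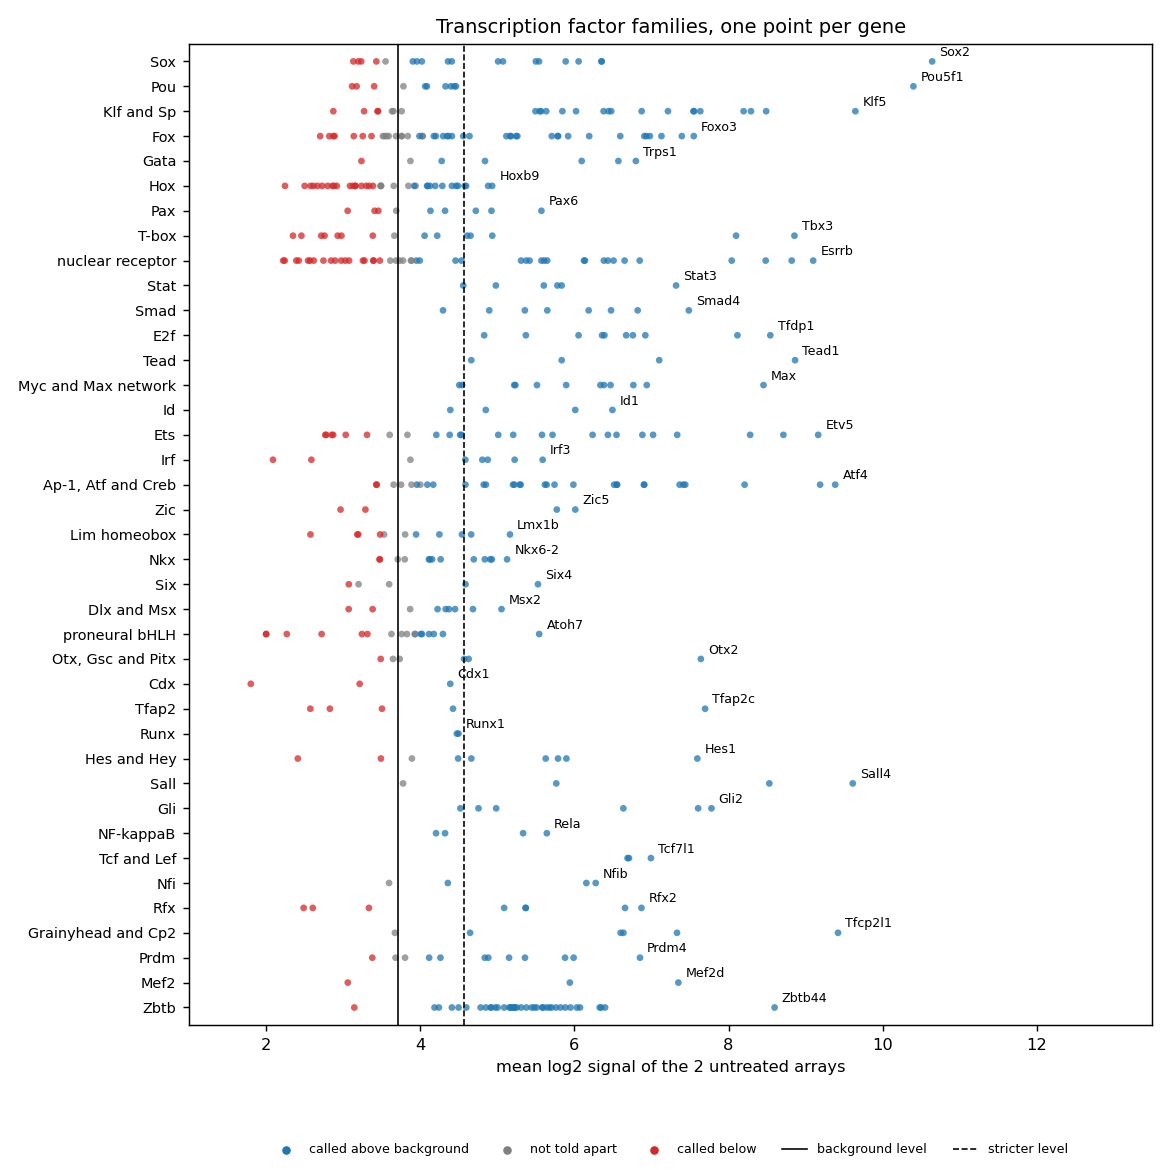
Mean log2 signal of the 2 untreated arrays (x axis) for each measured member of 39 transcription factor families (rows), coloured by its call, with the brightest member called above background named in each row. The solid line is the background level of 3.71 and the dashed line the stricter level of 4.56. Sox2 and Pou5f1 lie far right of their families, at 10.64 and 10.40, while the Hox row ends at Hoxb9 with 4.93.

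A smaller share of receptors than of all genes was above background: 147 of 346 in 20 families (42.5%), and 95 (27.5%) at the stricter level, with a median level of 3.62. The families include carriers for nutrient uptake, and the brightest members were the glucose transporters Slc2a1 (Glut1) at 10.69 and 10.78 and Slc2a3 (Glut3) at 10.04 and 10.10. After these transporters came the Wnt receptor Fzd7, at 8.67 and 8.72, and Tfrc, at 8.37 and 8.40. Tfrc, the transferrin receptor that brings in iron, belongs to the nutrient uptake family too. The LIF receptor pair was above background, with Il6st (gp130) at 8.04 and 7.89 and Lifr at 7.33 and 7.42. Osmr, which replaces Lifr in the oncostatin M receptor, was below at 2.44 and 2.66, and the interleukin 6 receptor chain Il6ra read 4.21 and 4.44.

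Receptors for Wnt, Hedgehog, KIT ligand and matrix had bright members. With Fzd7 the brightest, 12 of 19 Frizzled and Wnt co-receptor genes were above background (63.2%, against 59.8% of all genes). Kit, the receptor of stem cell factor, read 8.18 and 8.22, while 2 others of the 8 genes of its family were called above background. Ptch1, the Hedgehog receptor, read 7.86 and 7.93, and Itga6, the laminin-binding integrin chain, 7.84 and 7.78. All 4 Notch receptors were above the stricter level, with Notch1 at 6.19 and 6.29.

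The receptors for FGF and for the BMP, activin and TGF-β ligands were moderate. All 5 FGF receptor genes were above background and 2 above the stricter level. Fgfr1 was the brightest at 6.08 and 6.21, against 4.27 and 4.41 for Fgfr2. Of 14 genes for BMP, activin and TGF-β receptors 11 were above, with Bmpr2 at 6.95 and 7.04, Bmpr1a at 6.63 and 6.78 and Acvr2b at 6.32 and 6.35. Tgfbr2, the type II receptor for TGF-β, was not told apart from background at 3.95 and 3.67, and Bmpr1b (2.77 and 2.48) and Acvr1c (2.40 and 2.18) were below it. Receptors of immune cells and neurons were mostly low: 1 of 10 Toll-like receptors (Tlr2 at 6.25 and 6.31), 5 of 21 chemokine receptors, 10 of 41 G protein-coupled receptors for neurotransmitters and 11 of 55 ionotropic receptors were above background, with Gabbr1 (7.22 and 7.16) and Grik3 (6.79 and 6.94) as bright exceptions.

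Of 118 ligand genes in 6 families 54 (45.8%) were above background and 24 (20.3%) above the stricter level. Fgf4, the differentiation signal made by stem cells, was the brightest at 8.98 on both arrays. Gdf3, a BMP-related factor of pluripotent cells, read 7.42 and 7.51, Lefty2 6.85 and 7.17 and Lefty1 6.69 and 6.57, and Nodal, which the Lefty proteins inhibit, read 6.11 and 6.13. Bmp4, which is known to work with LIF, was at 6.41 and 6.67. In the Nodal pathway the ligand, its co-receptor Tdgf1, the receptor Acvr1b (6.28 and 6.33) and the inhibitors Lefty1 and Lefty2 were above the stricter level, while the receptor Acvr1c and the inhibitor Cer1 were below background. Of 19 Wnt genes 7 were above background and 1 at the stricter level, Wnt4 at 4.99 and 5.12, and of 32 interleukins 7 were above.

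**Figure D3:**
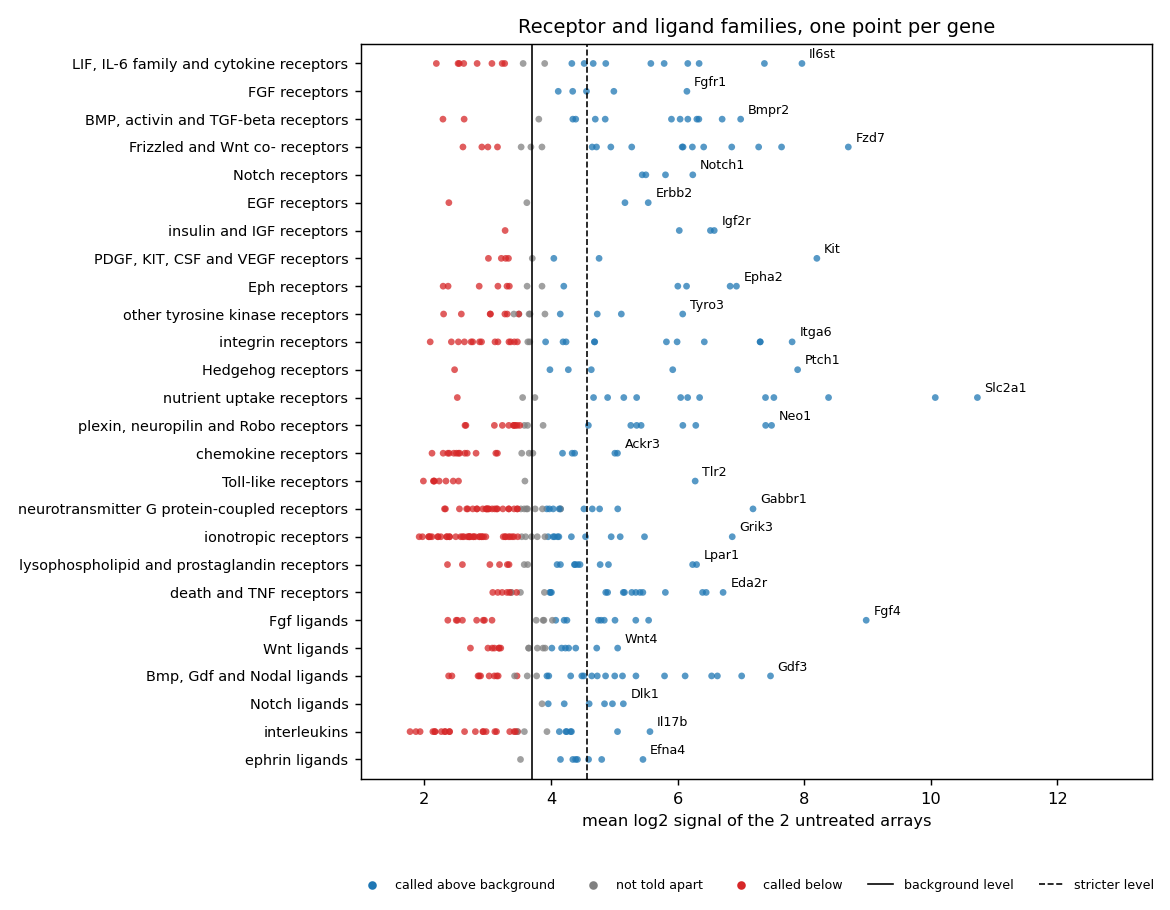
Mean log2 signal of the 2 untreated arrays (x axis) for each measured member of 20 receptor families and 6 ligand families (rows), coloured by its call, with the brightest member called above background named in each row. The solid line is the background level of 3.71 and the dashed line the stricter level of 4.56. Slc2a1, a glucose transporter, at 10.74 is the brightest point of the receptor rows and Fgf4 at 8.98 that of the ligand rows, and most chemokine, Toll-like and ionotropic receptors lie left of the solid line.

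The brightest signals came from the machinery of translation. Of the 20 brightest genes 14 encoded ribosomal proteins: Rps29, Rplp1, Rpsa, Rps28, Rps14, Rpl28, Rps20, Rpl41, Rpl23a, Rps18, Rps15, Rps21, Rpl36 and Rpl13. Rps29 read 13.25 and 13.21 and Rplp1 13.19 and 13.15. The others were Eef1a1, the factor that delivers tRNA to the ribosome (13.12 and 13.11), Rn7sk, the small nuclear RNA that restrains transcription elongation (12.86 and 12.82), Actb, cytoplasmic actin (12.52 and 12.51), the histone gene H4c4 (12.43 and 12.50), AY036118 (12.68 and 12.60) and Baiap2l1, a membrane-bending adaptor. Ribosomal protein genes made up 33 of the 50 and 46 of the 100 brightest genes. The share then fell off, with 48 among the 200 brightest, and 61 of the 62 measured were above the stricter level. The exception, Rpl3l, a paralog of striated muscle, read 3.17 and 3.05, below background. Ribosomal protein genes have many processed copies in the genome, so their signals may not be told apart by probes.

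Baiap2l1 headed the list with 13.44 and 13.38 from 1 of its 3 probe sets. Its other probe sets read 10.40 and 10.23, and 5.06 and 5.30, and the mean of all 3 is 9.63, so its first place rests on 1 probe set. More than 1 probe set was present for 15 of the 20 brightest genes, against 999 of all 19938. Of these 999 genes 418 had probe sets more than 2-fold apart and 29 more than 16-fold. The 14 probe sets of Rps12 ran from 11.82 to 12.41, and 5 of them held the same value on each array, 12.45 and 12.37.

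Housekeeping classes were above background nearly in full. All 15 glycolysis enzyme genes were above the stricter level, with Aldoa (aldolase) at 11.34 and 11.41. The respiratory chain and ATP synthase had 89 of 91 genes above, led by Cox6b1, a subunit of cytochrome oxidase, at 11.92 and 11.91, and the dimmest was the testis-specific Cox7b2 at 2.74. The proteasome had 46 of 48, and its dimmest gene, Psmb8 of the immunoproteasome, had a mean of 2.74 too. All 45 genes of replication were above background. The cell cycle drivers Ccnb2 (10.01 and 9.96) and Ccna2 (9.66 and 9.71) lay at the top of the cyclins and cyclin-dependent kinases, of which 17 of 20 were above. The G1 cyclins Ccne1 (8.35 and 8.47), Ccnd1 (7.14 and 7.03) and Ccnd2 (5.153 and 4.998) were also above the stricter level.

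Chromatin regulators were bright. All 9 DNA methylation genes were above background, 8 at the stricter level. Tet1, which oxidises methylated cytosine, read 10.21 and 10.10 and Tet3 4.75 and 4.49. The maintenance enzymes Uhrf1 (9.052 and 9.001) and Dnmt1 (8.47 and 8.36) stood beside the de novo enzymes Dnmt3a, with the values given above, and Dnmt3b (6.48 and 6.38). In Polycomb, which silences developmental genes, 25 of 26 genes were above background, with Suz12 at 10.03 and 10.01, Ezh2 at 8.61 and 8.66 and Eed at 7.52 and 7.66. Phf19 was its dimmest gene, with a mean of 3.65. The other probe set of Eed had a mean of 3.73, close to the background level.

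By kind of transcript, 11414 of 18556 protein-coding genes (61.5%) were above background, 251 of 675 long noncoding RNAs (37.2%), 48 of 53 small nucleolar RNAs (90.6%) and 84 of 297 genes recorded as microRNAs (28.3%). The brightest noncoding RNAs beside Rn7sk were Rpph1, the RNA of RNase P, at 12.33 and 12.27, and Rmrp, the RNA of the related RNase MRP, at 12.24 and 12.22. Terc, the telomerase RNA, read 8.24 on both arrays. The signals of Rn7sk, Rpph1 and Rmrp thus lay above the median of the ribosomal protein genes, 11.97. Terc, and the small nucleolar RNAs with a median of 5.99, lay below it. These are signals and not amounts of RNA.

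MicroRNAs were measured by probe sets for the precursor genes, so the values below say nothing of the mature strand. The mature sequences of 3 seed groups are shown because clusters of these groups are known in stem cells. They are RefSeq's (GRCm38.p6), 5′ to 3′, with the seed, bases 2 to 8, in capitals.
mmu-miR-17-5p: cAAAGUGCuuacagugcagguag
mmu-miR-20a-5p: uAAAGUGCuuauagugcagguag
mmu-miR-93-5p: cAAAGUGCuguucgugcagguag
mmu-miR-106b-5p: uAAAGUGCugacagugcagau
mmu-miR-363-3p: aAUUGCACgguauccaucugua
mmu-miR-25-3p: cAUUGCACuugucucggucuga
mmu-miR-92b-3p: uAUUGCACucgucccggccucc
mmu-miR-302b-3p: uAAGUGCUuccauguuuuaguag
mmu-miR-302d-3p: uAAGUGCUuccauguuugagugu
The first 4 share the seed AAAGUGC, the next 3 AUUGCAC, and the last 2 AAGUGCU. Of 6 precursors with the seed AAAGUGC, 3 were above background: Mir17 read 5.58 and 5.47, Mir20a 4.49 and 4.29, and Mir93 3.97 and 4.56. Mir106b at 4.21 and 3.77 and Mir106a at 3.58 and 3.53 were not told apart, and Mir20b was below. Of 6 with the seed AUUGCAC, 3 were above the stricter level: Mir363 read 6.22 and 5.78, Mir25 6.09 and 5.83, and Mir92b 5.84 and 5.40. Mir92-2, Mir32 and Mir367 were below. Mir302b (2.24 and 2.39) and Mir302d (1.97 and 2.58), of the cluster known from primed cells, were both below background. They were the only 2 matched precursors with the seed AAGUGCU, so any other precursor with that seed is not described here. Of 300 genes with microRNA symbols 83 (27.7%) were above and 41 at the stricter level. A total of 270 were matched to 498 mature sequences with 390 different seeds. The brightest precursor, Mir598, read 8.55 and 8.53.

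Genes above background had promoters rich in CpG dinucleotides. Of the 18556 protein-coding genes 15006 (80.9%) had a promoter of 300 bases in the RefSeq table. The median promoter of a gene above background held 22 CpG dinucleotides (9313 genes), and that of a gene below it 4 (4551 genes). At least 10 were present in 86.4% of the former and 25.1% of the latter. Where a gene had several starts, taking the start with the fewest gave medians of 20 and 3. The background level was itself set from olfactory receptor genes, so most of them lie below it by construction. Without olfactory, vomeronasal and taste receptors, the genes below background had a median of 5 (3584 genes), and 31.75% had at least 10. Sox2, with 27 in its run shown above, lies on the CpG-rich side, and Nanog, with 4 in the 300 bases, lies on the other, although Nanog was called above background at 10.91. Genes not told apart from background had promoters for 78.1% only, and the check is void for them because fewer than 80% had a value. The same limit holds for the genes below background without those receptors, at 78.6%. These are counts over genes, which are not independent, and no test was made. Probe sequences were not used here, and whether their base composition has a part in the signal was not tested.

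The 2 arrays agreed closely. Across 19938 genes, which are not independent replicates, the log2 difference between the arrays had an SD of 0.216 and a median of -0.0004, with Pearson's r = 0.9945 and Spearman's rho = 0.9924, and 98.4% of genes lay within 1.5-fold. The spread depended on level: in 10 equal bins of genes by mean level the SD was 0.226 in the dimmest bin, reached 0.260 in bin 4 and was 0.103 in the brightest. It was 0.188 over the genes above background and 0.233 over those below, though both calls use this spread and so favour a small one. Bright genes such as those of the pluripotency network were thus read with less error than genes near background. The median standard error of a gene's mean level was 0.0774.

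Only 10 genes (0.0502%) differed more than 2-fold between the arrays, and Pate11 was the only 1 of them called above background, with 6.46 and 5.44. The call itself uses the spread between the arrays, so genes that differ widely are called less readily. The largest difference was that of Mir130a, at 3.54 and 2.07, and 3 of the 10 were microRNA genes. After Pate11, the widest differences among genes above background were those of Mir196a-1 (3.94 and 4.92), Hgh1 (5.25 and 4.31), Zfp850 (4.066 and 4.995), Ifna9 (4.98 and 4.08) and Gm5176 (4.88 and 3.98). Gm10277, Rflnb, Lurap1l and Gm14410 followed, each between 1.84-fold and 1.85-fold apart. None of these 10 genes above background was a pluripotency gene.

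**Figure D4:**
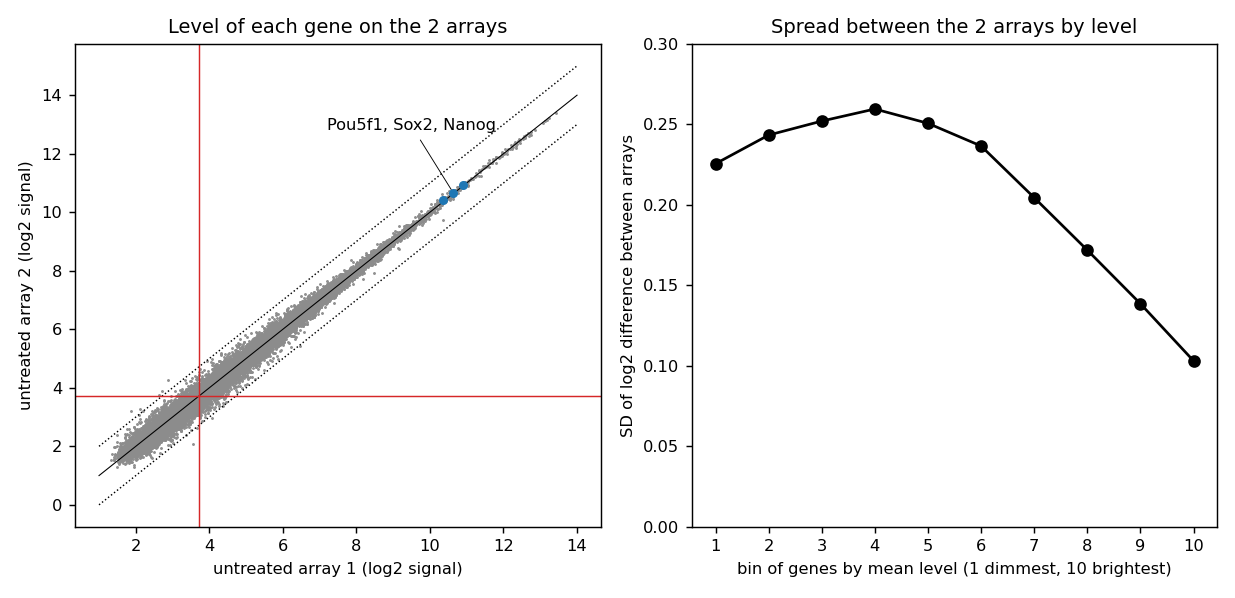
The left panel plots the log2 signal of each of the 19938 genes on untreated array 1 (x axis) against untreated array 2 (y axis), with the diagonal, dotted lines at 2-fold, red lines at the background level of 3.71, and Pou5f1, Sox2 and Nanog in blue. The right panel plots the SD of the log2 difference between the arrays (y axis) for each of 10 equal bins of genes by mean level (x axis), which falls to 0.103 in the brightest bin.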

How the data were processed

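Total RNA from RW4 cells was read on 6 single-colour arrays, of which the 2 untreated ones were described. The deposited values are log2 signals, as read from their range, for 35556 probe sets with no missing value. How they were corrected, summarised and normalized is a point that the labels and the table leave unstated. Limma 3.14 appears in the submitters' processing notes, with no step attached to it. The values were used as deposited. Medians were 4.24 and 4.22 on the untreated arrays, with SDs of 2.33 and 2.34.

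The platform annotation gave 1 gene symbol to 21789 probe sets, several to 1621 and none to 12146. Only the first were used, and 21698 of them matched a current gene record. The brightest probe set by the mean of the untreated arrays stood for each of 19938 genes. Each level was tested against the background level with limma 3.58.1 in R 4.3.3 (intercept only, empirical Bayes moderation, two-sided, Benjamini-Hochberg adjustment over all genes, threshold 0.05). A gene had 1 residual degree of freedom, to which moderation added 3.64. Only 2 arrays limit the precision, and the median half-width of a 95% interval was 0.204. The background level takes the olfactory receptor genes as unused by these cells, which was assumed and not tested.

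The members, lists and background genes were chosen with earlier results of these data known. Families were collected by symbol, and 3 symbol patterns (interleukins, ionotropic receptors, histones) were corrected after seeing which genes they took. Genes were named by rule: the 20 brightest, up to 3 bright members per family or state, up to 5 bright and 3 dim defining members per lineage, the brightest and dimmest of each class, and the 10 above background with the widest difference between arrays. Others named, such as Esr1, Osmr, Il6ra, Myc, Terc, the microRNAs by seed and further family members, were chosen after their values were seen. The alternatives were other background levels, normalizations, probe set rules, filters and fits, and leaving out each array.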

Additional observations from a re-analysis of the deposited data

How the results depend on the processing

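No paired analysis was possible because only untreated arrays were described and no second group was compared. Core pluripotency genes stayed at 14 of 14 above background under every alternative run. The count of all genes above background ran from 9330 at the 99th percentile of the olfactory receptor genes to 13469 with vomeronasal and taste receptors as background (level 3.25). At the 99th percentile the lineage lists pooled fell from 80 to 44 genes above background, receptors from 147 to 95 and ligands from 54 to 24. By list, trophoblast went to 4, definitive endoderm, liver and pancreas to 1, primitive streak and mesoderm to 1, blood and endothelium to 1, and neural crest and epidermis to 2. With vomeronasal and taste receptors as background, the 2-cell-like state had 2 genes above, definitive endoderm, liver and pancreas 9, and macrophage and lymphocyte 5. Without untreated replicate 2, the 2-cell-like state had 2 genes above, and without replicate 1 it had 0. Testing every probe set raised the SD of the difference between arrays to 0.359 and the number over 2-fold apart to 952. Leaving out the dimmest 40% left 1 gene over 2-fold apart. Other levels and other sets of features differ by construction. With an array left out there is no spread to test, so each gene was called by its side of the background level. Without replicate 2, 12811 genes were above that level and 7127 below it. Usp17lc and Zfp352, not told apart in the main fit, read above it on untreated array 1 and below it on array 2. Counts with an array left out thus rest on another criterion. The other 260 values of this kind stayed within 1.5 times the main count or within the spread, and none changed direction. The depth of an array is not defined by reads, and signal over background limits what the dim lists can show.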

Other observations

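Y-linked genes and Xist were read in both arrays. Xist, the RNA that silences an X chromosome, read 5.03 and 5.28, Sry 4.82 and 5.13, and Eif2s3y 4.10 and 4.26, all called above background (limma). Kdm5d (2.86 and 2.71), Uty (2.29 and 2.93), Zfy1 (1.94 and 2.67), Usp9y (1.93 and 2.32) and Zfy2 (1.86 and 1.95) were below it.

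Probe sets without a gene symbol were set aside from the description. Of these 12146, 937 (7.71%) differed more than 2-fold between the untreated arrays, against 14 of the 21789 with 1 symbol, and their difference had an SD of 0.536 against 0.217. Of the probe sets without a symbol 44.1% were above the background level on both arrays, and 64 were above 12 on both, against 40 named genes. Ribosomal protein genes were close between the arrays, with an SD of the difference of 0.079, and small nucleolar RNAs were wide, at 0.338.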
